A study of Homo sapiens with 15 samples.

Results

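Cytosolic heat shock proteins and J-domain chaperones were examined as a group of 70 gene names among the 30982 on the array. Members were the names or current symbols starting with HSPA, HSPB, HSPD, HSPE, HSPH, HSP90A, DNAJA, DNAJB or DNAJC, together with HSF1 and BAG3. This matched 74 names, and 4 of them were left out (HSPA5, DNAJB9 and DNAJC3, which work in the endoplasmic reticulum, and HSPBAP1). The members carry 118 probes, and 36 members have 1 probe. For 57 members both channels were well above background on all 15 arrays, and 39 passed the filters in all 3 treatments. The name of the group does not hold for every member: HSPD1, HSPE1, HSPA9, DNAJA3, DNAJC15, DNAJC19 and DNAJC30 are known as mitochondrial proteins, and DNAJB11, DNAJC1, DNAJC10 and HSPA13 as proteins of the endoplasmic reticulum. HSPBP1 was caught by its HSPB prefix but is a partner of HSP70 and not a small heat shock protein. HSP90AB3P is a pseudogene close in sequence to HSP90AB1, so their probes may share signal, and the array design assigns probes of HSPA1A to HSPA1B too, so signal of the pair cannot be separated. Older array names are given by their current symbols, which differ from the array's for 12 members.

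Heat shock proteins hold other proteins in a folded or foldable state. HSP70 proteins bind stretches of unfolded protein, J-domain proteins bring clients to HSP70 and start its ATPase, HSP110 and BAG proteins exchange the nucleotide of HSP70, HSP90 finishes the folding of kinases and receptors, and small heat shock proteins keep unfolded protein from clumping. The transcription factor HSF1 switches on many of these genes after heat or protein damage, by binding heat shock elements in their promoters. Breast cancer cells are known to carry high levels of several of these proteins.

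The RNA came from MDA-MB231, an established line of triple-negative breast cancer cells, and was hybridised to 15 Agilent 2-color arrays, 5 for each treatment. The treatments were shCtBP2 (stable transfection with a short hairpin RNA clone against CTBP2 and selection with puromycin, per the study's methods), HIPP and P4, and cells were collected 24 h after treatment. HIPP (sodium 2-hydroxyimino-3-phenylpropanoate) and P4 (the corresponding hydrazone) are inhibitors of CtBP2, a corepressor that senses NADH, and were given at different concentrations. On each array, cRNA of treated cells was labelled with Cy5 and cRNA of control MDA-MB231 cells with Cy3, without exchange of the dyes. The labels name untreated cells as the control of every array, whereas the study's methods also describe a scrambled hairpin. Part of a log2 ratio may thus be a dye effect of its probe, and the spread between controls is missing where arrays share a control extract.

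Each array held 43376 gene spots, of which 65.2 to 77.5% passed the scanner software's test of being well above background for Cy5 and 64.9 to 81.0% for Cy3, and 0 were saturated. Pearson correlations between the log2 ratios of replicate arrays, across genes, were 0.30 to 0.57 for shCtBP2, 0.42 to 0.75 for HIPP and 0.01 to 0.70 for P4, the lowest between P4 replicates 1 and 3. CTBP2, the target of the hairpin, was below its control on 5 of 5 shCtBP2 arrays. Its mean log2 ratio of −0.41 (SD 0.11) did not pass the threshold (limma adjusted p = 0.0595). The study itself reported significantly lower CtBP2 mRNA by real-time PCR, and lower CtBP2 protein, against cells with the scrambled hairpin. With HIPP the mean of CTBP2 on the arrays was 0.57 (limma adjusted p = 0.00256). Among the markers of MDA-MB231, VIM, CD44, AXL and CAV1 were well above background in the control channel on all 15 arrays and CDH1 and PGR on none. ESR1, listed as low, was above background there on 11 arrays and CLDN3 on 15. Of the genes marking other cell types, PTPRC was above background on 1 control channel, CD3E on 14 and PECAM1 on 15, and their part in the results was not tested. In bulk RNA, fewer cells of a kind and less RNA per cell cannot be told apart.

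The letters of the heat shock element were searched in the 250 bases before each annotated start, in RefSeq promoter windows of GRCh38.p14. Its unit is GAA or the reverse complement TTC. A 3-unit form was taken as GAA, TTC and GAA, or TTC, GAA and TTC, in a row with any 2 bases (NN) between units, 13 letters in all. These are each other's reverse complement, so both strands were covered. A 2-unit form, GAA and TTC in either order with 2 bases between (8 letters), reads the same on both strands, and each 3-unit form contains a pair of them. Windows were found for 60 members, and DNAJB3, DNAJC1, DNAJC22, DNAJC24, DNAJC5B, HSF1, HSP90AB3P, HSPA12B, HSPA14 and HSPB2 had none. A 3-unit form stood before 6 of the 60 (10%) and before 152 of all 27305 genes with a window (0.557%). The 6 were HSPA6, HSPA8, HSP90AA1, HSP90AB1, HSPD1 and DNAJB6. A 2-unit form or longer stood before 19 of the 60 (31.7%) and before 14% of all genes. No form was found before DNAJB2, DNAJC13, DNAJB5, DNAJC12 or DNAJC25, which also have results below. The stretches are shown for 6 members that hold a match and are described below, with 20 bases either side of the matches nearest the start and the matched units in capitals, written 5′ to 3′ on the strand of the gene.
HSPA6, chr1:161524446-161524498, plus strand: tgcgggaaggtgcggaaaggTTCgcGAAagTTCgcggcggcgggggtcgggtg
HSPA1A, chr6:31815417-31815464, plus strand: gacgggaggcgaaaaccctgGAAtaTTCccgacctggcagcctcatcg
HSPB8, chr12:119178823-119178870, plus strand: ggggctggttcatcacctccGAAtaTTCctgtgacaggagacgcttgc
DNAJB1, chr19:14518417-14518494, minus strand: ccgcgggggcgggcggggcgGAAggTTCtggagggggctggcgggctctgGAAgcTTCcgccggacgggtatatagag
HSP90AA1, chr14:102087085-102087152, minus strand: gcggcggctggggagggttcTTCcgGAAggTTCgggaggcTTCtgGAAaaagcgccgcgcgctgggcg
HSPA8, chr11:123062159-123062211, minus strand: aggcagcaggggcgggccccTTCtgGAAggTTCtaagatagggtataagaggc
HSPB8 and HSPA1A hold the same 2-unit letters, 88 and 106 bases before their starts, while HSPA6 holds 3 units from 74 bases and HSPA8 from 55 bases before its start. HSPA8 has another 3-unit match from 230 bases. A match of letters is a description of the sequence, and the arrays do not measure binding of a factor.

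**Figure D1:**
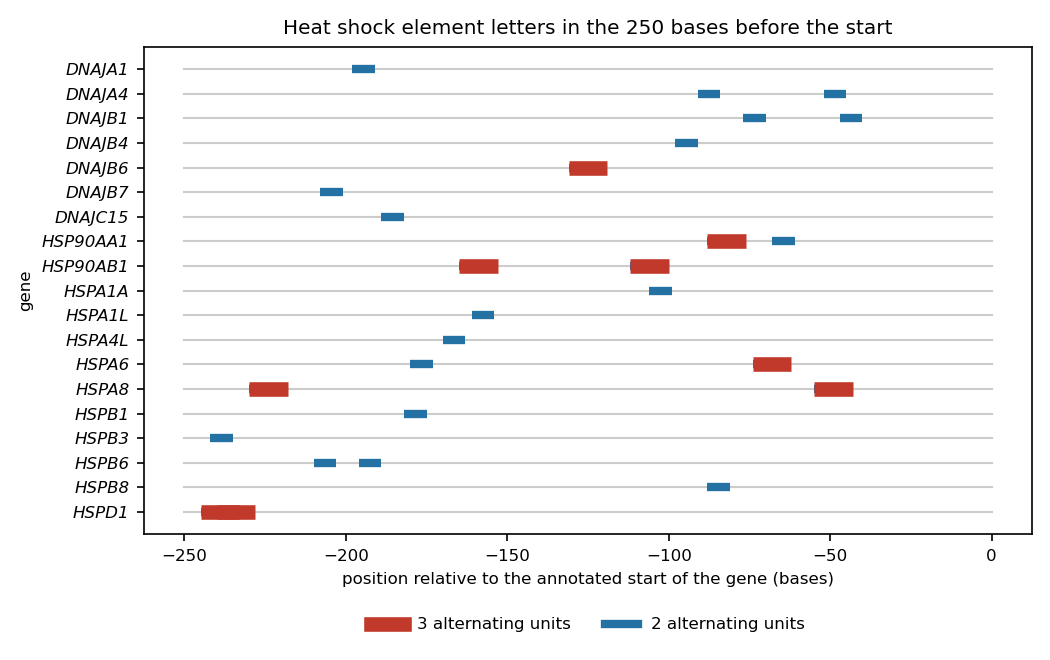
Positions of heat shock element letters in the 250 bases before the start of the 19 members that hold a match; the x axis is the distance to the annotated start in bases, red bars are 3 alternating units and blue bars 2. HSPA8, HSP90AB1 and HSPD1 each hold 2 matches of 3 units, which overlap in HSPD1.

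In HIPP-treated cells the largest change among the 70 members was a rise of HSPB8, a small heat shock protein that works with BAG3 in selective autophagy, to 8.49 times the control signal. The stress-inducible HSP70 genes HSPA1A and HSPA6 and the neuronal J-domain gene DNAJB2 rose between 2.53-fold and 2.97-fold, and DNAJC13, a J-domain protein of endosomes, fell 2.61-fold. All 3 HSP90A genes, HSPB1, HSF1 and DNAJB1 also rose, by 1.27-fold to 1.98-fold, under the study's fold-change threshold for HIPP of 2.5. Of the 70 members, 60 passed the filters and were tested with limma (Benjamini-Hochberg adjusted p below 0.05). Past the adjusted threshold were 24 that rose (40% of those tested, against 24.9% of all 27574 genes tested) and 10 that fell (16.7% against 23.9%), and 26 did not pass. Past the fold threshold too were 4 that rose (background 3.43%) and 1 that fell (background 3.61%). The median log2 ratio of the tested members was 0.21, and of all genes tested 0.08. After normexp correction and loess, 0 members passed both thresholds for HIPP, since the log2 ratios of HSPB8, DNAJB2, HSPA1A, HSPA6 and DNAJC13 became 1.02, 1.15, 1.01, 0.81 and −1.15, each still past the adjusted threshold (limma adjusted p between 2.48e-07 and 0.00174).

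In P4-treated cells HSPB8 again rose, 2.53-fold, and HSPA8, the constitutive HSP70 of the cytosol, fell 2.48-fold. These were the 2 members past the adjusted threshold and the fold-change threshold of 1.8. HSPB8 was not called with slide as a fixed block or after normexp and loess, nor HSPA8 without replicate 1, 4 or 5. HSPA1A, HSPA6, DNAJB2 and the HSP90A genes, which rose with HIPP, did not pass the test or were not tested with P4. With 58 members tested, 11 rose (19.0%, against 17% of all genes tested) and 12 fell (20.7% against 14.8%) at the adjusted threshold, with 1 in each direction past both thresholds (backgrounds 4.3% and 4.17%). The count of 23 past the adjusted threshold became 13 without replicate 4, 12 without replicate 5, 8 with slide as a fixed block (HSPA8, HSPA9, HSPB1, HSPBP1, BAG3, DNAJA3, DNAJB11 and DNAJC4), 6 with the P4 arrays alone (HSPB8, HSPA14, DNAJB5, DNAJB11, DNAJC1 and DNAJC12) and 1 by the methods' t-test (HSPB8). The tested members had a median log2 ratio of 0.07, below the 0.11 of all genes tested.

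In shCtBP2 cells few members changed: DNAJC12 rose 1.66-fold and DNAJC25 fell 1.61-fold, past the threshold of 1.5, and no HSP70, HSP90 or small heat shock protein gene passed both thresholds. Of 56 members tested, 3 rose and 3 fell at the adjusted threshold (5.36% each, against 6.58 and 6.92% of all genes tested), and 1 in each direction passed both (backgrounds 3.34 and 3.21%). The other members past the adjusted threshold were DNAJB5 and DNAJC18, which rose, and DNAJC2 and HSPA9, which fell. The median of the tested members was −0.03 and of all genes tested 0.04. Without shCtBP2 replicate 5 only 1 member, DNAJC12, passed the adjusted threshold, without replicate 4 2 and without replicate 2 3. The fold thresholds differ between treatments, so counts past both are not comparable across them.

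**Figure D2:**
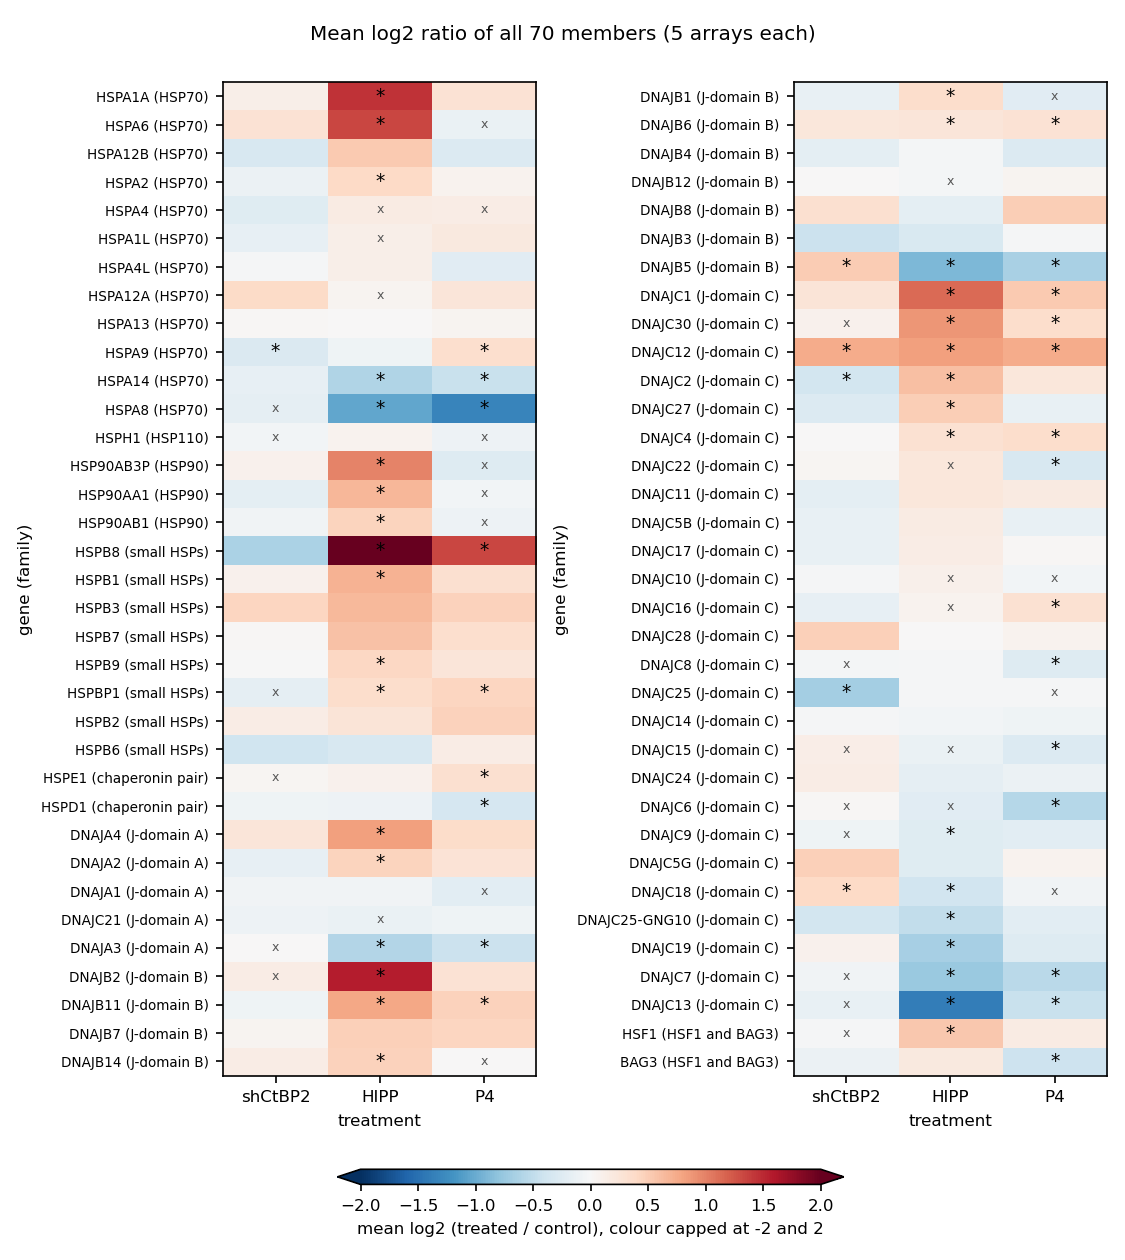
Mean log2 ratio of treated over control signal for all 70 members, in rows with their family, under shCtBP2, HIPP and P4 in columns (mean of 5 arrays each); red is higher and blue lower, with colour capped at −2 and 2. Stars mark the members past the adjusted threshold and x those removed by the filters; HSPB8 with HIPP has the highest mean, 3.09, and DNAJC13 with HIPP the lowest, −1.38.

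The counts by family below stand beside all-gene shares past the adjusted threshold of 24.9% higher and 23.9% lower with HIPP, 17 and 14.8% with P4, and 6.58 and 6.92% in shCtBP2 cells. The log2 ratio of HSF1, the heat shock transcription factor, was 0.28, 0.59, 0.48, 0.74 and 0.61 on HIPP replicates 1 to 5. All 5 were above 0 and above every shCtBP2 value, which ran from −0.11 to 0.08. The HIPP mean was 0.54 ± 0.17 (SD, n = 5, limma adjusted p = 0.000129). With P4 the values ran from −0.01 to 0.38 and their mean of 0.17 did not pass (adjusted p = 0.150). BAG3, the nucleotide exchange partner of HSP70 and HSPB8, had −0.22, −0.14, −0.50, −0.48 and −0.75 with P4, all below 0 (mean −0.42 ± 0.24, SD, n = 5, limma adjusted p = 0.0139). The adjusted p of BAG3 was 0.0715 without P4 replicate 5, the lowest, 0.0682 with the P4 arrays alone and 0.116 by the methods' t-test. With HIPP, BAG3 was above 0 on 4 arrays and below on replicate 4, with a mean of 0.20 (adjusted p = 0.167).

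Among the 12 HSP70 genes, HSPA1A, HSPA6 and HSPA2 rose with HIPP while HSPA8 and HSPA14 fell, and 4 of the 9 tested did not pass. With P4, 1 of 10 tested rose and 2 fell. HSPA1A, the main stress-inducible HSP70, measured by 3 probes on chromosome 6 between 31892373 and 31893529 (hg17), had 1.74, 2.10, 1.52, 0.69 and 1.21 on the HIPP arrays. Every value was above 0, with replicate 4 the lowest, and the mean was 1.45 ± 0.53 (SD, n = 5, limma adjusted p = 8.17e-05). It was under the fold threshold, though past the adjusted one, with slide as a fixed block (1.27) and without HIPP replicate 2 (1.29). The shCtBP2 arrays split into 3 above 0 (up to 0.73) and 2 below (down to −0.49). With P4, replicate 2 had 1.19 and the other 4 arrays −0.03 to 0.21. The first 2 probes of HSPA1A had HIPP means of 1.91 and 1.94 and the third 0.51.

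HSPA6, an HSP70 gene known as strictly stress-inducible (1 probe, chromosome 1, 158309213 to 158309272, hg17), had 1.55, 1.65, 1.49, 0.42 and 1.58 with HIPP. As for HSPA1A, replicate 4 was the lowest and all were above 0 (mean 1.34 ± 0.52, SD, n = 5, limma adjusted p = 7.00e-05). Its 2.53-fold mean lies close to the threshold of 2.5, and when 1 HIPP array was left out it stayed past the fold threshold only without replicate 4. With all arrays it was under the fold threshold with slide as a fixed block (1.26) and on background-subtracted signals (1.31). On the P4 arrays HSPA6 was above 0 on replicate 2 alone (0.62) and between −0.49 and −0.17 on the others, and it was removed there by the filter on the interquartile range. HSPA2, known from testis, was above 0 on 5 of 5 HIPP arrays, from 0.13 to 0.69 (mean 0.40, limma adjusted p = 0.00498), and was not called with the HIPP arrays alone (0.0538), with slide as a fixed block (0.0508) or by the methods' t-test (0.244).

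HSPA8, measured by 4 probes on chromosome 11 between 122433466 and 122435688 (hg17), had −2.53, −0.20, −0.21, −1.83 and −1.80 on P4 replicates 1 to 5. The P4 arrays thus lay in a low set of 3 and a set of 2 near 0, and the mean was −1.31 ± 1.06 (SD, n = 5, limma adjusted p = 0.0182). With HIPP the values were 0.26, −1.18, 0.09, −2.68 and −1.68, again with 3 low arrays and 2 near 0, and the mean was −1.04 ± 1.23 (SD, n = 5, limma adjusted p = 0.0376). The shCtBP2 arrays lay between −0.44 and 0.06. All 4 probes had means below 0, from −1.71 to −1.07 with P4 and from −1.36 to −0.85 with HIPP. Probes of HSPA8 that start at 122433466 and 122433484 overlap, so the 4 probes are not separate readings of the gene. The call of HSPA8 with P4 was lost without replicate 1, 4 or 5 (adjusted p = 0.0688, 0.0671 and 0.0664) and that with HIPP without replicate 2, 4 or 5 (0.0818, 0.190 and 0.130). The methods' t-test gave an adjusted p of 0.0715 with P4 and 0.118 with HIPP. P4 replicates 1 to 4 lay on 1 slide, and both sets of values occur among them. The HIPP arrays of slide 2 (replicates 1 to 3) had a mean of −0.28 and those of slide 3 (replicates 4 and 5) −2.18, while shCtBP2 replicates 1 and 2, also on slide 3, had −0.04. The HIPP call of HSPA8 was lost with slide as a fixed block (adjusted p = 0.0539), after normexp and loess (0.0675), on background-subtracted signals (0.0805), with the brightest probe (0.0533) and with the HIPP arrays alone (0.0820), and the P4 call on background-subtracted signals (0.107) and with the P4 arrays alone (0.0578).

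HSPA14, a ribosome-associated HSP70, had a small and even decrease: −0.52, −0.60, −0.76, −0.62 and −0.47 with HIPP and −0.46, −0.49, −0.38, −0.55 and −0.40 with P4. No value of either compound reached the shCtBP2 range of −0.28 to −0.03. The HIPP mean was −0.60 ± 0.11 (SD, n = 5, limma adjusted p = 8.06e-06). The P4 mean was −0.45 ± 0.07 (SD, n = 5, limma adjusted p = 0.000314). HSPA9, the mitochondrial HSP70, was below 0 on every shCtBP2 array (mean −0.28, SD 0.09, limma adjusted p = 0.0221) and above 0 on every P4 array (mean 0.34, SD 0.14, limma adjusted p = 0.00330). The shCtBP2 call was lost without replicate 1, 2, 4 or 5, and the P4 call with the P4 arrays alone (adjusted p = 0.0728). With HIPP its mean was −0.09 (adjusted p = 0.322).

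The HSP110 gene HSPH1, a nucleotide exchange factor of HSP70, had 0.40, 0.55, 0.27, −0.91 and 0.08 with HIPP (mean 0.08 ± 0.58, SD, n = 5, limma adjusted p = 0.755). Replicate 4 alone was below 0, and it was also the lowest HIPP array for HSPB8, HSPA1A, HSPA6, HSPA8, DNAJB2 and DNAJA1. HSPH1 was removed by the filter for shCtBP2 and P4, with means of −0.05 and −0.10.

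The 3 HSP90A genes rose together with HIPP. HSP90AA1, the inducible HSP90, had 0.45, 0.41, 0.64, 1.03 and 0.79, all above the shCtBP2 range of −0.64 to 0.04 (mean 0.66 ± 0.26, SD, n = 5, limma adjusted p = 0.000831). HSP90AB1, the constitutive HSP90, had 0.25, 0.20, 0.28, 0.94 and 0.54 (mean 0.44 ± 0.31, SD, n = 5, limma adjusted p = 0.00844). The pseudogene HSP90AB3P had 0.73, 0.56, 0.66, 1.82 and 1.17 (mean 0.99 ± 0.52, SD, n = 5, limma adjusted p = 0.000389). Unlike for HSPA1A and HSPA6, replicate 4 was the highest HIPP array for all 3. With P4 the 3 genes had means of −0.06, −0.10 and −0.25 and were removed by the filter, but the brightest HSP90AA1 probe alone was tested there and fell (−0.61, adjusted p = 0.0335). The probes disagreed: those of HSP90AA1 had HIPP means of 1.21, −0.78, 1.49 and 0.73, and those of HSP90AB1 1.35, 0.18 and −0.21. The brightest probe turned the direction of both, to −0.78 for HSP90AA1 (adjusted p = 0.00568) and −0.21 for HSP90AB1. Such disagreement was common, as 20 of the 34 members with several probes had probes of opposite sign with HIPP.

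**Figure D3:**
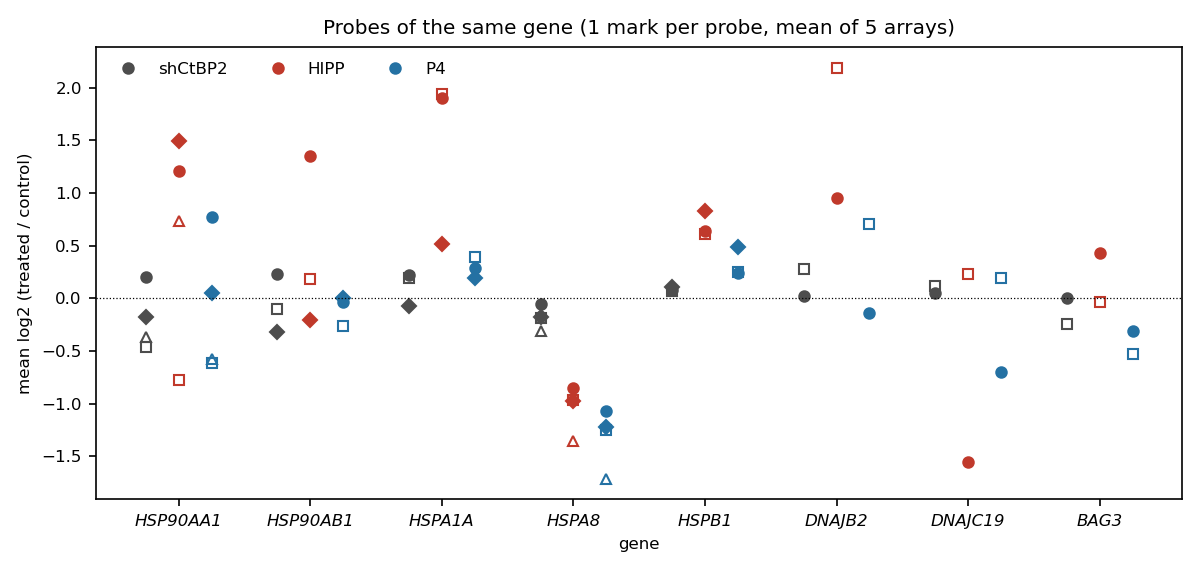
Mean log2 ratio of each probe (y axis, mean of 5 arrays) for 8 members with several probes, in color by treatment and in different marks for the probes of a gene. The probes of HSPA8 and HSPB1 lie together, but some of them overlap in position. Those of HSP90AA1 spread from −0.78 to 1.49 with HIPP and those of DNAJC19 from −1.55 to 0.23.

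Of the 8 names under the HSPB prefix, all tested with both compounds, 4 rose with HIPP (HSPB8, HSPB1, HSPB9 and HSPBP1) and 2 with P4 (HSPB8 and HSPBP1). None fell. The HIPP calls of HSPB9 and HSPBP1 were lost with the HIPP arrays alone (limma adjusted p = 0.0563 and 0.120) and by the methods' t-test (0.445 and 0.182). HSPB9 was also lost after normexp and loess (0.106). The P4 call of HSPBP1 was lost with the P4 arrays alone (0.0645) and by the methods' t-test (0.261). HSPB8 (1 probe, chromosome 12, 118080184 to 118087588, hg17) had 3.67, 3.57, 3.44, 1.96 and 2.78 on the HIPP arrays and 0.76, 1.81, 1.72, 1.56 and 0.84 on the P4 arrays. Every array of both compounds was above every shCtBP2 array, where values were 0.65, −0.87, −0.29, −1.46 and −1.19. The HIPP mean was 3.09 ± 0.72 (SD, n = 5, limma adjusted p = 7.36e-07). The P4 mean was 1.34 ± 0.50 (SD, n = 5, limma adjusted p = 0.00298). In shCtBP2 cells the mean was −0.63 ± 0.84 and did not pass (adjusted p = 0.164). HSPB8 was a dim gene in the control channel of the P4 arrays (well above background on 4 of 5) and in the shCtBP2 arrays (on 2 of 5 treated and 3 of 5 control channels). Its control channel on the HIPP arrays was above background on 5 of 5 but also dim. The mean log2 control signal was 7.16 there, 6.99 with P4 and 7.03 with shCtBP2, on the normexp and loess scale. With P4 HSPB8 was not called after normexp correction and loess (0.33, adjusted p = 0.141) or with slide as a fixed block (0.18, adjusted p = 0.819). The slide-block value is fitted at the mean of all slides from the arrays of all treatments, and it lies below every P4 array. The P4 mean was 1.46 on slide 1. Replicate 5, the P4 array that shared a slide with another treatment, had 0.84.

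HSPB1, the abundant HSP27, had 0.38, 0.48, 0.45, 1.12 and 1.03 with HIPP, above the shCtBP2 range of −0.13 to 0.27 on every array (mean 0.69 ± 0.35, SD, n = 5, limma adjusted p = 0.000273). Its 3 probes, some of which overlap in position, had HIPP means of 0.61 to 0.83. With P4 the 5 values were 0.15 to 0.69 and the mean of 0.32 lay just outside the threshold (adjusted p = 0.0561). It passed with the replicate block (adjusted p = 0.0103), with slide as a fixed or random block (0.0246 and 0.0413), after normexp and loess (0.0315), with the brightest probe (0.0202), without dim probes (0.0373) and with the series table's values (0.0472). HSPB2, HSPB3 and HSPB7, small heat shock proteins of muscle, were well above background on 0 of the 15 arrays in either channel, as were HSPA12B, DNAJB7 and DNAJC5B. Both genes of the mitochondrial chaperonin pair passed with P4: HSPD1 (HSP60) fell, −0.33 ± 0.21 (SD, n = 5, limma adjusted p = 0.0141), and its co-chaperonin HSPE1 rose, 0.33 ± 0.26 (limma adjusted p = 0.0422). HSPE1 turned to −0.044 with slide as a fixed block (adjusted p = 0.907) and was not called with the P4 arrays alone (0.137) or by the methods' t-test (0.442). The call of HSPE1 was also lost when P4 replicate 1, 2, 4 or 5 was left out, and that of HSPD1 without replicate 5. HSPD1 with P4 was also not called on background-subtracted signals (−0.073, adjusted p = 0.673), with the brightest probe (−0.17, adjusted p = 0.152), with slide as a fixed block (adjusted p = 0.0690), with the P4 arrays alone (0.106) or by the methods' t-test (0.131). With HIPP neither passed (means −0.10 and 0.09).

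**Figure D4:**
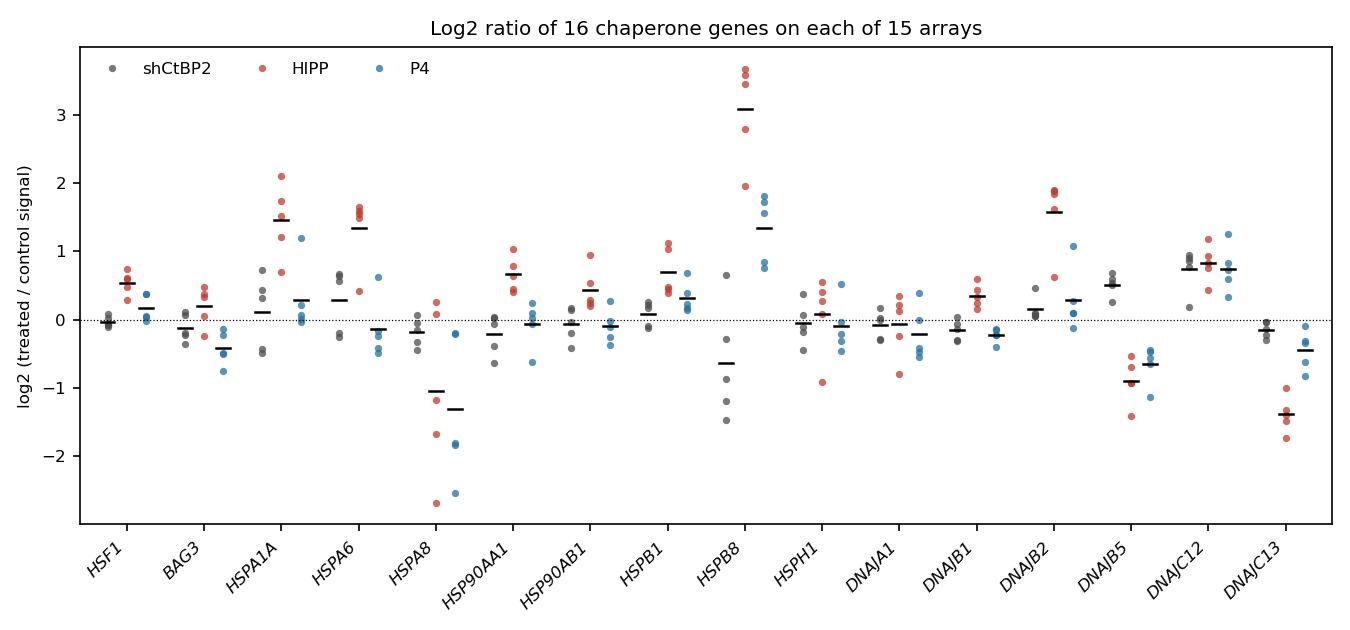
Log2 ratio of treated over control signal on each of the 15 arrays (points, y axis) for 16 members, with black bars for the mean of the 5 arrays of shCtBP2 (grey), HIPP (red) and P4 (blue). The 5 HIPP arrays lie between 1.96 and 3.67 for HSPB8, above all shCtBP2 arrays, and both compounds split into low arrays and arrays near 0 for HSPA8.

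Among the J-domain genes of types A and B, which hold the general partners of HSP70, DNAJB2 rose most with HIPP. DNAJB2, a J-domain protein that sends clients to the proteasome, had 1.89, 1.88, 1.84, 0.62 and 1.61 (mean 1.57 ± 0.54, SD, n = 5, limma adjusted p = 5.91e-06). Replicate 4 stood apart below the other 4. Its 2 probes, on chromosome 2 between 219973688 and 219977090 (hg17), had HIPP means of 0.95 and 2.19. With P4, replicate 2 had 1.08 and the others −0.12 to 0.27.

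DNAJB1, the HSP40 induced with HSPA1A in the heat shock response, had 0.24, 0.44, 0.15, 0.33 and 0.59 with HIPP, above every shCtBP2 value (mean 0.35 ± 0.17, SD, n = 5, limma adjusted p = 0.00306). The call of DNAJB1 was lost on background-subtracted signals (0.18, adjusted p = 0.0585), with the HIPP arrays alone (adjusted p = 0.0519) and by the methods' t-test (0.158), and after normexp and loess it was removed by the filter. With P4 all 5 values were below 0, from −0.39 to −0.13, and the gene was removed by the filter. DNAJA1, the HSP40 paired with HSPA8, had 0.35, 0.12, 0.21, −0.79 and −0.23 with HIPP and did not pass (adjusted p = 0.745), nor with the hairpin (adjusted p = 0.802). DNAJA4 had 0.82 ± 0.32 with HIPP and DNAJA2 0.45 ± 0.44 (SD, n = 5, limma adjusted p = 0.000357 and 0.0274), the latter on 4 of 5 arrays. The 3 probes of DNAJA4 had HIPP means of 0.23, 0.51 and 1.73, and after normexp correction and loess its value was 0.19 (adjusted p = 0.00824). The call of DNAJA2 was lost after normexp and loess (0.38, adjusted p = 0.0719), on background-subtracted signals (0.276), with slide as a fixed block (0.146), with the HIPP arrays alone (0.0771), by the methods' t-test (0.218) and without HIPP replicate 1, 2 or 3. DNAJA3, the mitochondrial HSP40, fell on 5 of 5 HIPP arrays (−0.59 ± 0.38, limma adjusted p = 0.00301).

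DNAJB5 was the member whose ratio differed most in the lower direction between the compounds and the hairpin. It had 0.25, 0.51, 0.60, 0.54 and 0.68 on the shCtBP2 arrays (mean 0.51 ± 0.16, SD, n = 5, limma adjusted p = 0.0133). With HIPP it had −1.41, −0.93, −0.92, −0.52 and −0.70 (mean −0.90 ± 0.34, limma adjusted p = 3.15e-05), and with P4 −0.56, −1.13, −0.65, −0.44 and −0.47 (mean −0.65 ± 0.28, limma adjusted p = 0.00128). The shCtBP2 call was lost without replicate 5 (adjusted p = 0.0562) and with slide as a fixed block (0.14, adjusted p = 0.666), and the P4 call with that block (−0.23, adjusted p = 0.502). No array of either compound overlapped with those of the hairpin. DNAJB11, a co-chaperone of the endoplasmic reticulum, rose on 5 of 5 arrays of both compounds, by a mean of 0.78 (SD 0.20, limma adjusted p = 2.99e-06) with HIPP and 0.46 (SD 0.13, limma adjusted p = 0.000959) with P4.

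The 26 genes counted as type C, which include many specialised J-domain proteins (DNAJC21, named DNAJA5 on the array, was counted with type A and did not pass in any treatment in which it was tested), went both ways with HIPP: 6 of the 21 tested rose and 6 fell (28.6% each way, near the all-gene shares of 24.9 and 23.9%), and 9 did not pass. With P4, 5 of 23 tested rose and 6 fell (21.7 and 26.1%, against 17 and 14.8% of all genes). DNAJC13 (chromosome 3, 133739865 to 133739924, hg17) had −1.32, −1.73, −1.48, −0.99 and −1.40 with HIPP (mean −1.38 ± 0.27, SD, n = 5, limma adjusted p = 1.90e-07). All values were below the shCtBP2 range of −0.30 to −0.03. Without HIPP replicate 2 the mean was −1.30, under the fold threshold but past the adjusted one. With P4 it was also below 0 on 5 of 5 arrays, −0.44 ± 0.28 (limma adjusted p = 0.00867), and −0.14 with slide as a fixed block (adjusted p = 0.693). DNAJC1, a transmembrane J-domain protein of the endoplasmic reticulum, had 0.87, 1.24, 1.06, 0.96 and 1.55 with HIPP (mean 1.13 ± 0.27, SD, n = 5, limma adjusted p = 6.54e-07) and ran from 0.35 to 0.79 with P4 (mean 0.53 ± 0.23, limma adjusted p = 0.00167). DNAJC30, a mitochondrial protein, had an even rise with HIPP, from 0.72 to 1.00 (mean 0.88 ± 0.14, limma adjusted p = 1.41e-06), or 0.43 with the brightest probe (adjusted p = 0.000193). DNAJC19, part of the mitochondrial import motor, had −0.66 ± 0.28 with HIPP (limma adjusted p = 4.57e-05), but 1 of its 2 probes had −1.55 and the other 0.23.

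DNAJC12 (chromosome 10, 69235524 to 69241319, hg17), a co-chaperone of aromatic amino acid hydroxylases, was above 0 on all 15 arrays. It had 0.86, 0.90, 0.19, 0.77 and 0.95 in shCtBP2 cells (mean 0.74 ± 0.31, SD, n = 5, limma adjusted p = 0.00311), with replicate 3 apart from the others. After normexp correction and loess the shCtBP2 mean was 0.48, under the fold threshold (adjusted p = 0.0246). With HIPP it had 0.43 to 1.19 (mean 0.83 ± 0.28, limma adjusted p = 0.000183) and with P4 0.33 to 1.25 (mean 0.75 ± 0.34, limma adjusted p = 0.00108). After normexp correction and loess the HIPP mean was 0.44 (adjusted p = 0.0127), and with slide as a fixed block the P4 mean was 0.47 (adjusted p = 0.283). A dye effect of the probe would give 1 direction on all arrays too and was not tested. DNAJC25 (chromosome 9, 111495870 to 111495929, hg17) had −0.37, −0.43, −0.80, −0.83 and −1.001 in shCtBP2 cells (mean −0.69 ± 0.27, SD, n = 5, limma adjusted p = 0.0321). The 2 smallest decreases were those of replicates 1 and 2, which lay on another slide than the rest. The shCtBP2 mean was −0.40 on that slide and −0.88 on the other. With slide as a fixed block, fitted at the mean of all slides from the arrays of all treatments, the value was −0.07 (adjusted p = 0.892). The call was also lost after normexp correction and loess (−0.49, adjusted p = 0.0885) and when replicate 2, 3, 4 or 5 was left out. The readthrough transcript DNAJC25-GNG10, which shares sequence with DNAJC25, had −0.37 in shCtBP2 cells and did not pass.

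The compounds were then set against the hairpin directly, by the difference of log2 ratios, in which a dye effect of the gene cancels. HSPB8, HSPA1A and HSPA6, the HSP90A genes, HSPB1, DNAJB1 and DNAJB11 were higher with HIPP than in shCtBP2 cells, and DNAJB5, DNAJC18, DNAJC19 and HSPA14 lower. With the brightest probe alone the direction turned for HSP90AA1 (−0.31, adjusted p = 0.463) and DNAJC19 (0.12). Of the 48 members tested in this comparison, 14 were higher (29.2%, against 12.3% of all genes tested) and 5 lower (10.4% against 14.1%). Differences (with SE) were 3.72 ± 0.41 for HSPB8 (limma adjusted p = 1.18e-05), 1.34 ± 0.32 for HSPA1A (adjusted p = 0.00531) and 1.05 ± 0.29 for HSPA6 (adjusted p = 0.0128). The shCtBP2 side of the HSPB8 difference rests on channels well above background on only 2 of 5 (treated) and 3 of 5 (control) arrays, so its size is uncertain. After normexp correction and loess the difference of HSPB8 was 1.08 (adjusted p = 0.00440), and that of HSPA6 was 0.66 and no longer passed (adjusted p = 0.0680). DNAJC2, a ribosome-bound J-domain protein, differed by 0.98 ± 0.15 (adjusted p = 0.000224), with means of −0.37 in shCtBP2 cells and 0.61 with HIPP. HSP90AB3P, DNAJC1, DNAJB11 and HSP90AA1 differed by 0.91, 0.87, 0.87 and 0.86. In the lower direction DNAJB5 differed by −1.41 ± 0.18 (adjusted p = 3.41e-05), DNAJC18 by −0.78 ± 0.16 (adjusted p = 0.00203), DNAJC19 by −0.74 and HSPA14 by −0.44. DNAJC18 was −1.42 with the brightest probe, and DNAJC27 (0.76) was 0.35 after normexp correction and loess and did not pass with the brightest probe (0.22, adjusted p = 0.274). HSP90AB1 (0.51) was not called without HIPP replicate 4 or 5 or shCtBP2 replicate 1, 2 or 4, and DNAJB14 (0.32) was not called when any 1 HIPP or shCtBP2 array other than shCtBP2 replicate 1 was left out. On background-subtracted signals DNAJB5, DNAJC1, HSPB1 and the HSP90A genes were removed by the filter in this comparison. DNAJC5G also passed, but has only bounds.

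For HSPA1A and HSPA6 the HIPP and shCtBP2 arrays overlapped. The slide shared by HIPP replicates 4 and 5 and shCtBP2 replicates 1 and 2 gave smaller differences for HSPA1A (0.37) and HSPA6 (0.40), neither past the threshold with slide as a fixed block (adjusted p = 0.523 and 0.504). On that slide HSPB8 differed by 2.48, DNAJB5 by −0.99, DNAJC2 by 0.82, DNAJC1 by 0.93, DNAJB11 by 0.96 and HSP90AA1 by 1.26, past the threshold with slide as a fixed block. The call was also lost with that block for HSPA14 (adjusted p = 0.0678), HSPA2 (0.0964), DNAJC27 (0.143), DNAJB14 (0.170) and DNAJC5G (0.268). DNAJC5G, a J-domain gene of testis, was well above background on at most 3 of 5 arrays in any channel. Its treated channel was not above background on the HIPP arrays (at least 1.01-fold lower, on the normexp and loess scale), nor its control channel on the shCtBP2 arrays (at least 1.03-fold higher), and neither ratio passed its own test (adjusted p = 0.239 and 0.0807). Its difference was −0.07 after normexp correction and loess (adjusted p = 0.515), and its call was lost without HIPP replicate 1, 3 or 5 or shCtBP2 replicate 2 or 4.

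With P4 minus shCtBP2, 45 members were tested, and 4 were higher (8.89%, against 6.14% of all genes tested) and 1 lower (2.22% against 5.92%). HSPB8 differed by 1.97 ± 0.41 (SE, limma adjusted p = 0.00579), but by 0.39 after normexp correction and loess, where the call was lost (adjusted p = 0.295). HSPA9 differed by 0.63 ± 0.11 (adjusted p = 0.00152), DNAJC2 by 0.60 ± 0.15 (adjusted p = 0.0191, but 0.0530 without shCtBP2 replicate 5) and DNAJB11 by 0.55 ± 0.12 (adjusted p = 0.00759). DNAJB5 differed by −1.16 ± 0.18 (adjusted p = 0.000617). DNAJB5, DNAJB11 and HSPA9 were removed by the filter on background-subtracted signals. No slide held arrays of both, and with slide as a fixed block, which links them through the HIPP arrays, 0 members passed and HSPB8 had −0.24. HIPP and P4 were not tested against each other, since they were given at different concentrations. They differ in a hydroxyimino group in place of a hydrazone, and their values stand side by side above.

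**Figure D5:**
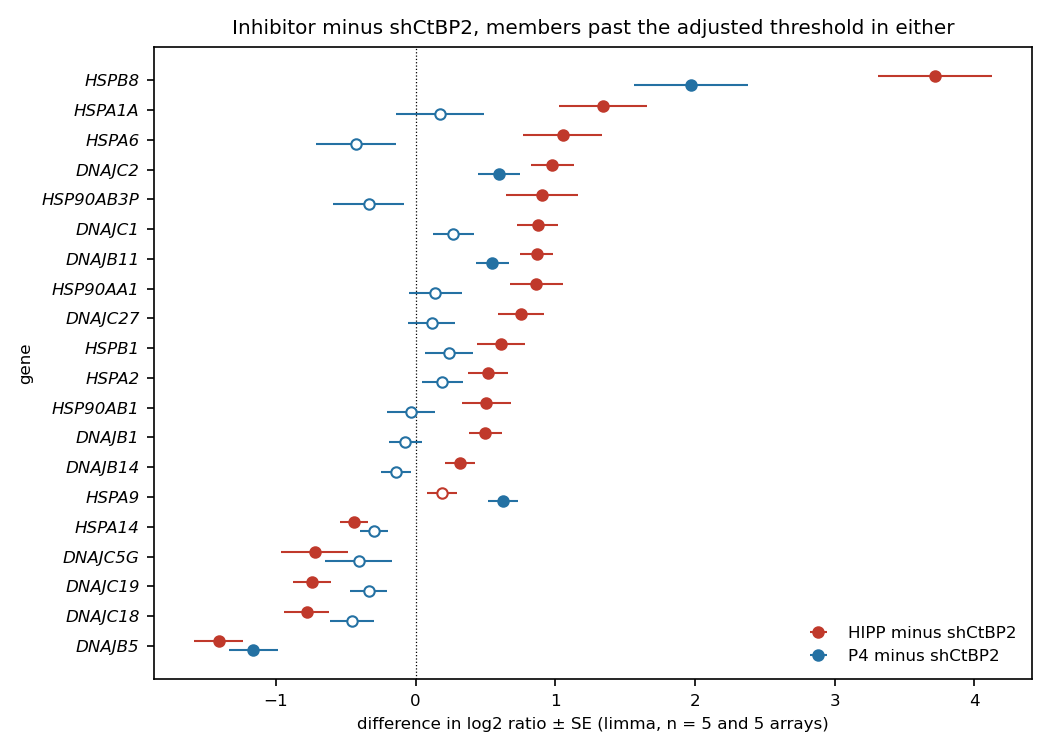
Difference in log2 ratio between each compound and shCtBP2 (x axis, ± SE from limma, 5 arrays each) for the 20 members past the adjusted threshold in either comparison; filled circles are past the threshold and open circles did not pass or were not tested. HSPB8 is at 3.72 for HIPP and 1.97 for P4, and DNAJB5 at −1.41 and −1.16.

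Other folding genes outside the 70 were read from lists of co-chaperones and chaperonins. The cytosolic chaperonin CCT, which folds actin and tubulin, fell with HIPP in 7 of 9 subunits and rose in 1 at the adjusted threshold, against 23.9 and 24.9% of all genes (median log2 ratio −0.43). CCT5 fell past both thresholds, −1.36 ± 0.18 (SD, n = 5, limma adjusted p = 5.14e-08), on 5 of 5 arrays. With P4, TCP1 (−0.87 ± 0.69, limma adjusted p = 0.0168) and CCT6B (−0.88 ± 0.37, limma adjusted p = 0.00803) were the 2 of 4 tested subunits that fell (14.8% of all genes fell), and TCP1 showed the same arrays near 0 as HSPA8, replicates 2 and 3 (−0.12 and −0.13). In shCtBP2 cells 3 of 7 tested subunits fell (6.92% of all genes), none past the fold threshold.

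Of the 16 HSP90 co-chaperones, 1 rose and 4 fell with HIPP among 10 tested, 3 of 8 tested fell with P4 and 3 of 10 fell in shCtBP2 cells. The shares of all genes beside these and the next counts are 24.9% higher and 23.9% lower with HIPP, 17 and 14.8% with P4, and 6.58 and 6.92% in shCtBP2 cells. FKBP4 (FKBP52, a partner of HSP90 on steroid receptors) fell on 5 of 5 shCtBP2 arrays, by a mean of −0.60 ± 0.11 (limma adjusted p = 0.000550), and PPP5C, an HSP90-bound phosphatase, with P4, −0.86 ± 0.80 (limma adjusted p = 0.00871), lower on 4 of 5 arrays. Of the 13 HSP70 co-chaperones, 10 were tested with HIPP, of which 4 rose and 5 fell, and 1 fell with P4 and 1 in shCtBP2 cells. Prefoldin, which hands chains to CCT, had 2 of 5 tested subunits higher and 1 lower with HIPP and 2 higher with P4. Among 14 other heat shock factors and targets, 5 rose and 3 fell with HIPP, 2 rose and 3 fell with P4 and 1 rose in shCtBP2 cells. No gene of the HSP70 co-chaperone, prefoldin and heat shock factor lists passed both thresholds in any treatment. In a list of 4 endoplasmic reticulum chaperones outside the members (HSPA5, HSP90B1, DNAJB9 and DNAJC3), DNAJC3 rose with HIPP on 5 of 5 arrays (mean 1.30, SD 0.17) and DNAJB9 on 4 of 5 (mean 0.75, SD 0.84), past the adjusted but not the fold threshold, and HSPA5 and HSP90B1 did not pass in any treatment in which they were tested.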

How the data were processed

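The 15 arrays were scanned and processed by the authors with Agilent Feature Extraction (version 9.5), which corrected background and dye differences. The deposited scanner files hold spot intensities of both channels, and the deposited series table holds log10 ratios of the same spots. From the corrected intensities, log2 of Cy5 over Cy3 was taken per spot, spots marked non-uniform or as outliers (78 to 265 per array) were left out, and spots, then probes of a gene, were averaged. Genes measured on at least 3 of 5 arrays were kept, and the 11% with the lowest interquartile range over a treatment's channel signals were removed, which took out 10 to 14 members per treatment. Ratios were tested against 0 with limma 3.58.1 (R 4.3.3), 15 arrays in one fit, with Benjamini-Hochberg adjustment. The fold thresholds of 1.5 (shCtBP2), 2.5 (HIPP) and 1.8 (P4) are those of the study's methods. The fit was tested on simulated data.

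Members, lists and the rule for named genes (those past both thresholds with 1 direction on all arrays, up to 12 each way, 13 fixed chaperones and up to 8 each way in a difference) were chosen with earlier results of these data known, and other members named were chosen after their values were seen. The labels call the arrays biological replicates. Arrays of shCtBP2 and P4 with the same replicate number deviated together (correlations across genes 0.14 to 0.35 for every number), so for this pair the fit with a replicate block is given in the closing section. The number of arrays limits the precision. Alternatives were background and dye correction, probe choice, filters, slide and replicate as blocks, the methods' t-test and leaving out each array. With slide as a fixed block, a treatment's value was taken at the mean of all slides, in 1 fit of all arrays. No slide held all treatments, so the value also draws on gaps between slides in the other treatments.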

Additional observations from a re-analysis of the deposited data

Results flagged for a closer look

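In 7 of 84 sets of 5 arrays of a named member, 1 array stood apart from the others by Dixon's ratio, where chance gives about 1 in 20. DNAJB2 had 0.46 on shCtBP2 replicate 2 (the nearest other array 0.10) and 0.62 on HIPP replicate 4 (nearest 1.61). HSPA6 had 0.42 on HIPP replicate 4 (nearest 1.49) and 0.62 on P4 replicate 2 (nearest −0.17). HSPA1A had 1.19 on P4 replicate 2 (nearest 0.21). DNAJC1 had 0.073 on shCtBP2 replicate 4 (nearest 0.26), and DNAJC12 had 0.19 on shCtBP2 replicate 3 (nearest 0.77). HIPP replicate 4 and P4 replicate 2 each stood apart for 2 of these genes.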

How the results depend on the processing

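Without the interquartile range filter all 70 members were tested, and 34, 23 and 6 passed the adjusted threshold for HIPP, P4 and shCtBP2, as with it. Members past both thresholds numbered 2 for shCtBP2, 5 for HIPP and 2 for P4. They became 0, 0 and 1 after normexp correction and loess, 1 each for shCtBP2 and P4 with the methods' t-test, 4 for shCtBP2 with the brightest probe, 3 for HIPP with slide as a fixed block, 1 for P4 fitted on its own arrays, and 20 for HIPP and 4 for P4 at a fold threshold of 1.5. Leaving out 1 array gave 1 to 3 for shCtBP2, 2 to 5 for HIPP (2 without replicate 2) and 1 to 2 for P4 (1 without replicate 1 or 5).
At the adjusted threshold, 6 members passed for shCtBP2, against 10 without dim probes, with its own arrays and with the series table's values, and 11 by the methods' t-test before adjustment, a count chosen after the data were seen. For HIPP 34 passed, and 18 by the adjusted t-test. For P4 23 passed, against 8 with slide as a fixed block, 6 with its own arrays, and 1 by the t-test, or 11 before adjustment. Leaving out 1 array gave 1 to 5, 29 to 36 and 12 to 22, with 13 and 12 for P4 without replicates 4 and 5.
HIPP minus shCtBP2 had 19 members, 16 to 21 when 1 array was left out and 16 with slide as a fixed block. P4 minus shCtBP2 had 5 members, 4 to 6 without 1 array, and 11 after normexp and loess, 3 on background-subtracted signals, 8 with the brightest probe or without the filter, and 0 with slide as a fixed block. With the replicate block these differences had 24 and 6 members, and the treatments 37, 27 and 9 past the adjusted threshold and 5, 2 and 2 past both (HIPP, P4, shCtBP2). Same-numbered arrays correlated at 0.07 to 0.31 between shCtBP2 and HIPP and at −0.03 to 0.47 between HIPP and P4, and 7 of 15 arrays correlated best with their own number.
Directions turned with the brightest probe alone for values that had passed. With HIPP these were HSP90AA1 (−0.78), HSP90AB1 (−0.21), DNAJC19 (0.23) and DNAJC27 (−0.074). In HIPP minus shCtBP2 they were HSP90AA1 (−0.31) and DNAJC19 (0.12). With slide as a fixed block, directions turned for HSPE1 (−0.044) and DNAJC6 (0.27) with P4 and for HSPB8 in P4 minus shCtBP2 (−0.24). Members that had not passed turned with the slide block, in shCtBP2 cells for BAG3 (0.23), DNAJA1 (0.46), HSPB1 (−0.37) and HSPD1 (0.11), with P4 for HSPA1A (−0.55) and with HIPP for HSPH1 (−0.085). So did values not tested, in shCtBP2 cells for HSPA8 (1.004) and HSPH1 (0.56) and with P4 for HSP90AA1 (0.32) and HSP90AB1 (0.21). They also turned on background-subtracted signals in shCtBP2 cells for DNAJA1 (0.040) and HSPD1 (0.075), and with the brightest probe for BAG3 with HIPP (−0.033). Leaving out 1 array turned members that had not passed. With HIPP these were DNAJA1 (range −0.17 to 0.11, the highest without replicate 4), HSPE1 (−0.0027, without replicate 2, to 0.16) and HSPH1 (−0.041 to 0.32, below 0 without replicate 1 or 2). In shCtBP2 cells, without replicate 2, they were HSP90AB1 (−0.13 to 0.022) and HSPA1A (−0.042 to 0.26). Values not tested turned too: HSPE1 (−0.048 to 0.10) and HSPH1 (−0.16 to 0.043) in shCtBP2 cells and HSP90AA1 with P4 (−0.14 to 0.078). A slide-block value is fitted at the mean of all slides from the arrays of all treatments, so it can lie outside the treatment's own arrays. For HSPA8 in shCtBP2 cells it was 1.004, while the treatment's means were −0.04 on slide 3 and −0.28 on slide 4. The cause of turns in the other settings was not tested. Median log2 ratios of all genes tested ran from 0.04 to 0.11, near 0.00 after loess and from −0.07 to −0.01 on centred background-subtracted signals. Fold changes of dim members are limited by signal over background.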
